A study of Homo sapiens with 4 samples.

Results

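The genes described here are 37 genes of cholesterol and fatty-acid synthesis, taken by name: 7 of the mevalonate steps, 11 of the steps between squalene and cholesterol, 5 that control the sterol-sensing transcription factors, 6 of sterol transport and efflux, and 8 of fatty-acid synthesis and desaturation. Of these, 36 had a probe set assigned to a single gene symbol, out of 18239 genes with one, and all 36 reached the brightness minimum that 10823 genes reached. FDFT1, the squalene synthase gene, is not analysed here. The minimum was log2 4.63, the median of all values, and had to be reached on at least 1 array. Each gene is given by its brightest probe set as a log2 signal, and the spread over its other probe sets is given where it bears on a result.

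The study exposed REC-1 and Z138, human cell lines of mantle cell lymphoma (MCL, a B-cell cancer), to CC-292, a covalent inhibitor of Bruton tyrosine kinase (BTK), which relays the signal of the B-cell receptor. There are 4 Affymetrix arrays, 1 for each group: REC-1 with CC-292, REC-1 control, Z138 with CC-292 and Z138 control. The protocol states a CC-292 concentration of 1 uM for 48 h, while the treated arrays are titled with 1 mM, and no time stands in the title of the Z138 control. What the control cultures received in place of CC-292 is not stated. Because each group holds 1 array, the differences within a line have no test. The only tests are limma fits over all 4 arrays, in which the arrays of a line differ in treatment and are not replicates of 1 condition.

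Cholesterol is built from acetyl-CoA through mevalonate, farnesyl diphosphate, squalene and lanosterol. The transcription factors SREBP-1 and SREBP-2 switch on these enzymes when sterols in the endoplasmic reticulum are low: SCAP escorts them to the Golgi for cleavage, and INSIG1 and INSIG2 hold SCAP back when sterols are plentiful. When cells hold excess cholesterol, oxysterols activate LXR, which induces the efflux pumps ABCA1 and ABCG1 and the ubiquitin ligase MYLIP. Fatty-acid synthesis starts from citrate through ACLY, ACACA and FASN, and its genes are targets mainly of SREBP-1.

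The arrays were alike in overall signal, with medians of log2 4.63 to 4.64. All 5 B-cell markers measured (CD79A, CD79B, MS4A1, PAX5 and CD22) and the MCL genes CCND1 and SOX11 reached the minimum on all 4 arrays, and none of 3 NK-cell, 4 myeloid or 2 hepatocyte markers reached it on any. Of 4 T-cell markers, CD3G reached it on both Z138 arrays and CD3D on 1 REC-1 array. The erythroid gene HBB lay just above it on all 4 arrays, at 4.85 to 4.95, and the adipocyte gene ADIPOQ reached it on 1. The 3′ minus 5′ signal of ACTB, a measure of RNA integrity, was log2 0.53 and 0.77 on the CC-292 and control arrays of REC-1, and 1.11 and 1.12 on those of Z138. For GAPDH the same measure was closer between the lines, at -0.31 and -0.32 in REC-1 and -0.24 and -0.28 in Z138. Spiked hybridization controls had a median difference between REC-1 and Z138 of 0.17 on the CC-292 arrays and 0.33 on the control arrays. The part of these measures in the line differences below was not tested.

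The lipid genes differed between the 2 lines far more than between CC-292 and control. Averaged over both treatments, 16 of 36 passed the limma test between lines (Benjamini-Hochberg adjusted p under 0.05), 5 higher and 11 lower in REC-1 than in Z138. The background was as large, since 44.7% of all 10823 genes passed, 21.6% higher and 23.1% lower in REC-1. By role, the calls were 3 higher and 0 lower among 10 genes from squalene to cholesterol, and 0 higher and 3 lower among 5 genes of SREBP control. The mevalonate steps gave 0 higher and 2 lower of 7, fatty-acid genes 0 higher and 4 lower of 8, and transport genes 2 in each direction of 6. No test of these splits was made.

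The fold counts on the separate array pairs gave the same picture. A difference of at least 1.5-fold between REC-1 and Z138 was seen for 15 of 36 genes on the CC-292 arrays (44.4% of all genes) and for 15 of 36 on the control arrays (43.9% of all genes). At least 2-fold were 7 genes on the CC-292 arrays (25.3%) and 7 on the control arrays (24.3%). On both pairs at once a 1.5-fold difference was seen for 13 genes, 4 higher and 9 lower in REC-1, beside 16.4% and 17.8% of all genes. At least 2-fold on both pairs were 6 genes: SC5D, DHCR7 and STARD4, higher in REC-1, and ABCA1, ABCG1 and FADS2, lower in REC-1. These are shares of 9.30% and 9.79% among all genes. The median difference of the 36 genes was log2 -0.04 on the CC-292 arrays and -0.02 on the control arrays, beside -0.03 and 0.02 over all genes. The line difference had the same sign on both pairs for 30 of 36 genes and for 82.8% of all genes. How many of all genes have lines that do not overlap was not counted, so non-overlap below only describes the values. The pairs share their cell lines, and an array averages over all cells of a culture, so that fewer cells with a transcript and less transcript per cell cannot be told apart.

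**Figure D1:**
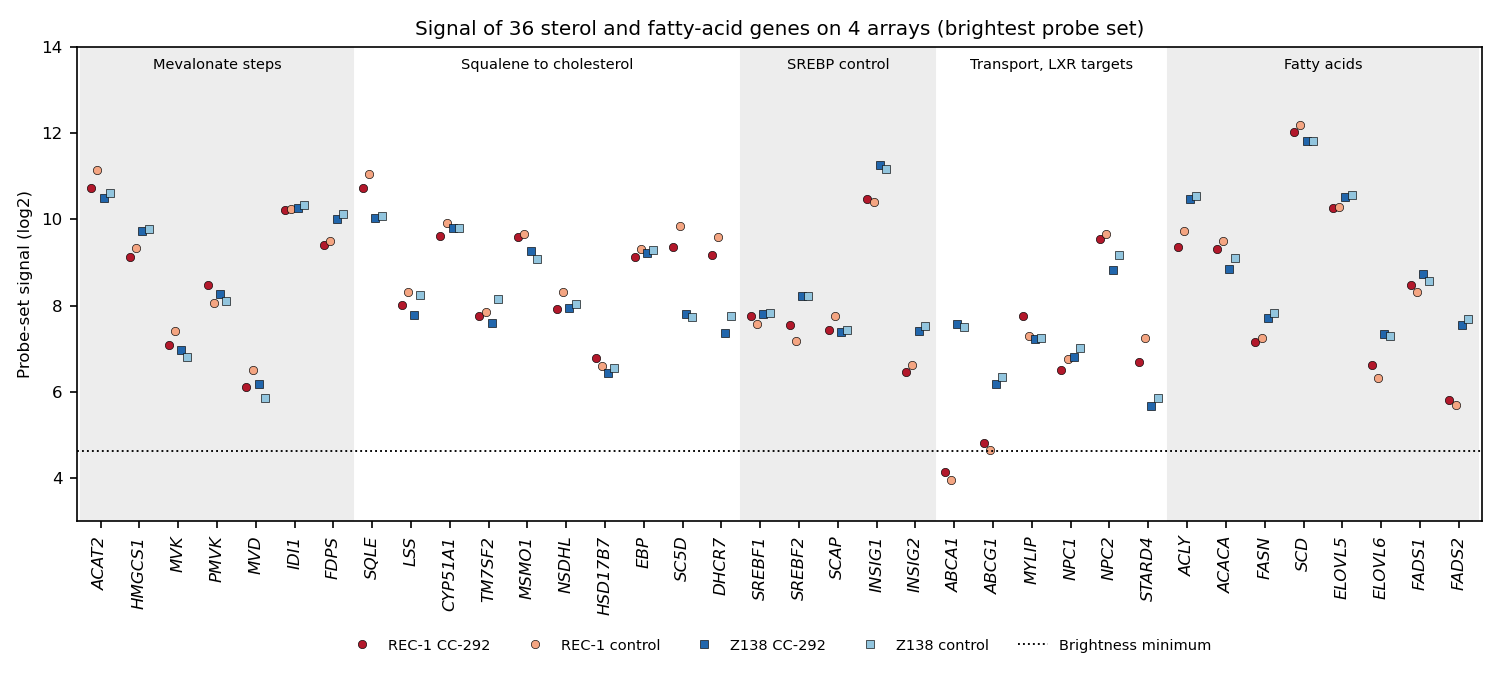
Log2 signal of the brightest probe set (vertical axis) of the 36 lipid genes, grouped by role, on the 4 arrays, with 1 point per array and the brightness minimum of 4.63 drawn as a dotted line. For most genes the CC-292 and control points of a line lie close together, whereas SC5D, DHCR7, ABCA1 and FADS2 show a wide gap between REC-1 and Z138.

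From squalene to cholesterol, 3 of 10 genes rose in REC-1 relative to Z138: SC5D, DHCR7 and SQLE. SC5D, the sterol C5 desaturase, had log2 signals of 9.36 and 9.84 on the CC-292 and control arrays of REC-1, against 7.81 and 7.74 on those of Z138. Both REC-1 arrays lay above both Z138 arrays, and the limma difference was 1.82 ± 0.19 (SE; adjusted p = 0.0014). All 4 of its probe sets were higher in REC-1, by 1.55 to 2.61 on the CC-292 arrays and by 1.13 to 2.09 on the control arrays. DHCR7, which reduces 7-dehydrocholesterol to cholesterol in the last step, had 9.18 and 9.59 in REC-1, against 7.37 and 7.76 in Z138. The lines did not overlap, and its limma difference was also 1.82 (SE 0.16; adjusted p = 0.00067), a 3.53-fold difference on the CC-292 arrays and 3.55-fold on the control arrays. It rests on 1 probe set.

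SQLE, the squalene epoxidase that starts the oxygen-dependent part of the pathway, had 10.74 and 11.05 in REC-1, against 10.03 and 10.08 in Z138. REC-1 was higher on both pairs, by 0.84 ± 0.16 (limma, SE; adjusted p = 0.010). The remaining genes of this stretch did not pass. MSMO1, a C4-methylsterol oxidase, had 9.59 and 9.65 in REC-1, against 9.27 and 9.08 in Z138, with an adjusted p of 0.078 by limma. LSS, which closes the rings to lanosterol, had 8.01 and 8.31 in REC-1, against 7.78 and 8.25 in Z138, and these values overlap. For CYP51A1, TM7SF2, NSDHL, HSD17B7 and EBP, which demethylate, reduce and isomerize the sterol, the limma difference between lines lay between -0.07 and 0.21.

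Promoter sequences were searched for motifs tied to sterol control. RefSeq promoters of GRCh38.p14, running from 250 bases before to 50 after a transcription start, were matched for 32 of the 36 genes and not for SQLE, ACAT2, ABCG1 and FASN. The motifs, searched on both strands, were TCACNCCAC (the core of a sterol regulatory element, bound by SREBP), GGGCGG (a GC box), CCAAT (bound by NF-Y) and CACGTG (an E-box). TCACNCCAC was found in 1 of 32 genes, SREBF2, and in 1.55% of the genes above the minimum that have a promoter in the table. CCAAT was found in 23 of 32 (43.9% of those genes), GGGCGG in 30 of 32 (76.5%) and CACGTG in 6 of 32 (13.0%). Of all 35116 promoters in the table, 1.13% held TCACNCCAC, 34.6% CCAAT, 45.0% GGGCGG and 7.26% CACGTG. A match is a description of the letters and not a site of binding. The promoter of SREBF2 is shown because it holds the sterol motif, and those of SC5D, DHCR7 and ABCA1, chosen after their values were seen, as examples of genes that differed at least 2-fold between the lines in either direction. Where a gene has several starts, the one with the most marked motifs is shown. Capitals mark TCACNCCAC, CACGTG and CCAAT, the last also as ATTGG on the opposite strand.
SREBF2 promoter, chr22:41832855-41833154 (+ strand): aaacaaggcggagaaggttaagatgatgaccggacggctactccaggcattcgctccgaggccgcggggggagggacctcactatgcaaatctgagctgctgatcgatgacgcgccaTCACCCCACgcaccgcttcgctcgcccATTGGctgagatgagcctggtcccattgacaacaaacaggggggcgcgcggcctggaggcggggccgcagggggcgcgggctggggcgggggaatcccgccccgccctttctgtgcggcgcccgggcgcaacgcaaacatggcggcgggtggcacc
SC5D promoter, chr11:121292521-121292820 (+ strand): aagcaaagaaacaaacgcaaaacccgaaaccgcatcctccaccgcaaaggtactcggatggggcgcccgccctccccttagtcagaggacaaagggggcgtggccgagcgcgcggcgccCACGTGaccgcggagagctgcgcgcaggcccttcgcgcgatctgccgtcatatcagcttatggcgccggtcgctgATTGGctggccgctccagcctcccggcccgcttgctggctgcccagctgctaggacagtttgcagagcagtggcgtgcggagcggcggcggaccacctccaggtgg
DHCR7 promoter, chr11:71448344-71448643 (- strand): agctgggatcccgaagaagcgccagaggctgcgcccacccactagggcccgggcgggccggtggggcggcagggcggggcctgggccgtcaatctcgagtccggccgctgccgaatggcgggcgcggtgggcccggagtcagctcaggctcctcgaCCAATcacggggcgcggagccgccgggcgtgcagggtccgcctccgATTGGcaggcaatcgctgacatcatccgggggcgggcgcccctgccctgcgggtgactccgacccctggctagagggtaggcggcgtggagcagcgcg
ABCA1 promoter, chr9:104928106-104928405 (- strand): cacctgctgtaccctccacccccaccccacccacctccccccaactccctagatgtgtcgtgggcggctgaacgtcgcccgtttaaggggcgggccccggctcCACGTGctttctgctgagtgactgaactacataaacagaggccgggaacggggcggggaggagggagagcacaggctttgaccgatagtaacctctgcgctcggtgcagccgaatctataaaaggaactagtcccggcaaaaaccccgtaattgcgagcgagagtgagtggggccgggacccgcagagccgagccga
The SREBF2 promoter holds TCACNCCAC and 1 CCAAT on the opposite strand, and SC5D 1 CACGTG and 1 CCAAT on the opposite strand. DHCR7 holds 1 CCAAT on each strand and ABCA1 1 CACGTG.

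In the mevalonate steps, the genes that passed were lower in REC-1. FDPS, the farnesyl diphosphate synthase, had 9.40 and 9.49 on the CC-292 and control arrays of REC-1, against 10.02 and 10.12 on those of Z138. HMGCS1, which makes HMG-CoA, had 9.13 and 9.34 in REC-1, against 9.73 and 9.79 in Z138. The lines did not overlap for either gene. By limma, FDPS was lower in REC-1 by a log2 difference of -0.62 ± 0.16 (SE; adjusted p = 0.023) and HMGCS1 by -0.53 ± 0.16 (SE; adjusted p = 0.042). The HMGCS1 call was lost when no brightness filter was used (adjusted p = 0.079).

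ACAT2, which joins acetyl-CoA units in the cytosol, leaned the other way, with 10.72 and 11.16 in REC-1, against 10.49 and 10.61 in Z138. Its limma difference of 0.39 ± 0.17 (SE) had an adjusted p of 0.115, and all 3 of its probe sets were higher in REC-1 on both pairs. The kinases MVK and PMVK, the decarboxylase MVD and the isomerase IDI1 had limma differences between -0.06 and 0.35, none of which passed. MVK and MVD were 1.51-fold and 1.58-fold higher in REC-1 on the control arrays, but within 1.07-fold on the CC-292 arrays.

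Genes that control SREBP were lower in REC-1 in 3 of 5 cases. INSIG1, which retains the SCAP complex and is itself induced by SREBP-2, had 10.46 and 10.40 in REC-1, against 11.27 and 11.18 in Z138. INSIG2, its relative, had 6.46 and 6.63 in REC-1, against 7.41 and 7.52 in Z138. For both genes the arrays of REC-1 lay below those of Z138, and the limma differences were -0.79 ± 0.16 (SE; adjusted p = 0.010) for INSIG1 and -0.92 ± 0.16 (SE; adjusted p = 0.0063) for INSIG2. SREBF2, which encodes SREBP-2, had 7.54 and 7.17 in REC-1, against 8.22 and 8.22 in Z138. It was lower in REC-1 by a log2 difference of -0.86 ± 0.17 (limma, SE; adjusted p = 0.011).

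The INSIG1 and SREBF2 calls depended on the probe set taken. With the median of each gene's probe sets they missed the threshold (adjusted p = 0.091 for INSIG1 and 0.18 for SREBF2), although all 3 probe sets of each gene were lower in REC-1 on both pairs. The differences of the SREBF2 probe sets ran from -0.68 to -0.43 on the CC-292 arrays and from -1.05 to -0.10 on the control arrays. SREBF1, which encodes SREBP-1, and SCAP did not pass, with limma differences of -0.15 and 0.18.

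Both efflux pumps were lower in REC-1 than in Z138. ABCA1, which loads cholesterol onto apolipoprotein A-I, had 4.14 and 3.95 in REC-1, both below the brightness minimum, against 7.57 and 7.50 in Z138. By this probe set its signal was therefore lower in REC-1 by at least 7.67-fold on the CC-292 arrays and at least 7.29-fold on the control arrays, counted from the minimum. Limma used the values below the minimum as they stand (adjusted p = 9.6e-05). Its difference ran from -3.50 to -1.23 over 9 alternatives of processing. The other probe sets of ABCA1 also lay below the minimum in REC-1. One had 5.05 and 5.25 in Z138, and the other stayed below the minimum there too and gives no direction. ABCG1, which exports cholesterol to HDL, had 4.82 and 4.66 in REC-1, close to the minimum, against 6.18 and 6.34 in Z138. By limma it was lower in REC-1 by a log2 difference of -1.52 ± 0.17 (SE; adjusted p = 0.0016), and all 5 of its probe sets were lower in REC-1 on both pairs. The dimmer ABCG1 probe sets lay below the minimum on the CC-292 array of REC-1, and most also on its control array. There they give a direction but no size. The lines did not overlap for either pump.

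MYLIP, the LXR target that marks lipoprotein receptors for degradation, was not called. It had 7.76 and 7.30 in REC-1, against 7.23 and 7.26 in Z138, with a limma difference of 0.29 and an adjusted p of 0.27. STARD4, a soluble sterol carrier, had 6.69 and 7.24 in REC-1, against 5.68 and 5.85 in Z138. All 4 of its probe sets that reached the minimum were higher in REC-1, with a limma difference of 1.20 ± 0.17 (SE; adjusted p = 0.0038). NPC2 hands cholesterol to NPC1 for export from lysosomes. NPC2 had 9.54 and 9.66 in REC-1, against 8.83 and 9.18 in Z138, a limma difference of 0.59 ± 0.16 (SE; adjusted p = 0.032). That call was lost with the mean of its 4 probe sets (adjusted p = 0.27), 1 of which was below the minimum on all arrays. NPC1 did not pass, with a limma difference of -0.29.

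All fatty-acid genes that passed were lower in REC-1. FADS2, the delta-6 desaturase, had 5.82 and 5.70 in REC-1, against 7.55 and 7.69 in Z138, a limma difference of -1.87 ± 0.17 (SE; adjusted p = 0.00075). All 4 of its probe sets were lower in REC-1 on both pairs. Its genomic neighbour FADS1, the delta-5 desaturase, had 8.47 and 8.32 in REC-1, against 8.74 and 8.57 in Z138, a limma difference of -0.26 that did not pass (adjusted p = 0.23). The lower signal in REC-1 was thus called for only 1 of the 2 desaturases, and the difference between the genes was not tested.

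ACLY, which supplies cytosolic acetyl-CoA, had 9.37 and 9.74 in REC-1, against 10.46 and 10.54 in Z138 (limma -0.95 ± 0.17, SE; adjusted p = 0.0073). ELOVL6, which elongates palmitate, had 6.63 and 6.33 in REC-1, against 7.33 and 7.31 in Z138 (limma -0.84 ± 0.17, SE; adjusted p = 0.011), although 1 of its 3 probe sets was higher in REC-1 on the control arrays. FASN, the fatty acid synthase, had 7.16 and 7.26 in REC-1, against 7.70 and 7.82 in Z138 (limma -0.55 ± 0.16, SE; adjusted p = 0.034). The lines did not overlap for any of these 3 genes. FASN rests on 1 probe set, and its call was lost without the brightness filter (adjusted p = 0.065). ACACA, which makes malonyl-CoA, the delta-9 desaturase SCD and the elongase ELOVL5 did not pass, with limma differences of 0.43, 0.28 and -0.26.

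**Figure D2:**
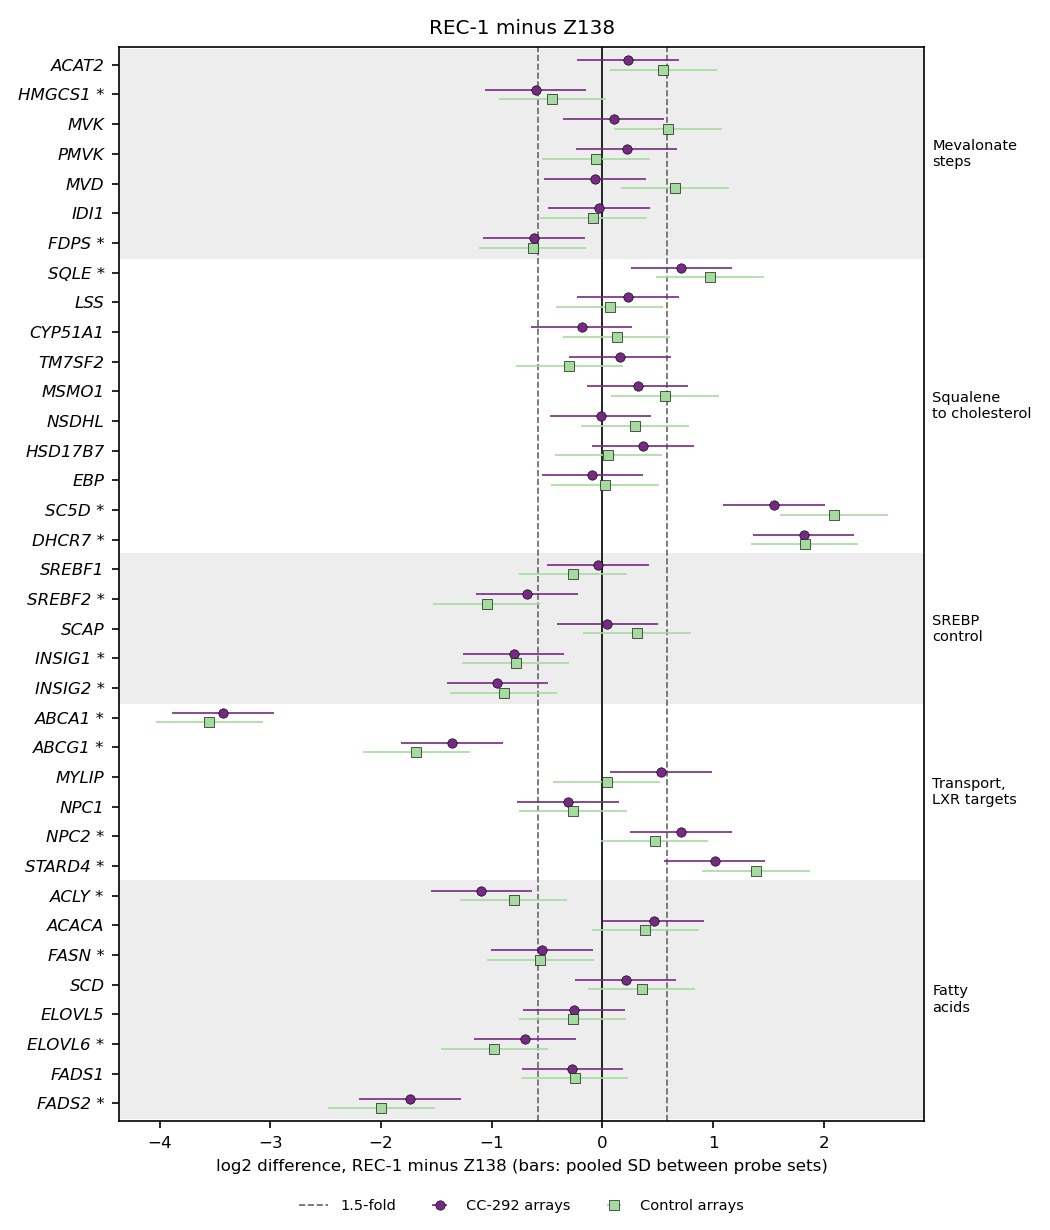
Log2 difference REC-1 minus Z138 (horizontal axis) of the 36 lipid genes on the CC-292 arrays and on the control arrays, grouped by role, with the pooled SD between probe sets (0.46 and 0.48) as bars, dashed lines at 1.5-fold, and an asterisk at the 16 genes that passed the limma test between lines. SC5D, DHCR7 and STARD4 lie at or above 1 on both pairs, and ABCA1, ABCG1 and FADS2 below -1.

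**Figure D3:**
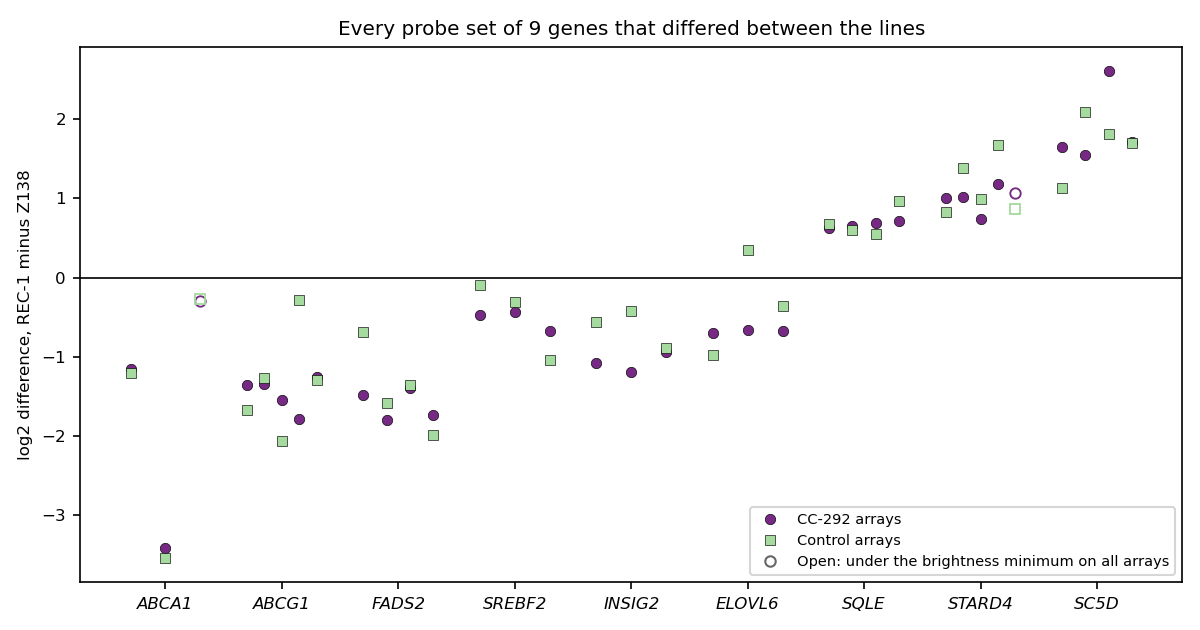
Log2 difference REC-1 minus Z138 (vertical axis) on the CC-292 and control arrays for every probe set of 9 genes called between the lines and chosen after their values were seen, with open points for probe sets under the brightness minimum on all arrays. The probe sets of ELOVL6 lie on both sides of 0 on the control arrays, and the filled points of each other gene lie on one side. Open points give no direction.

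By their brightest probe sets, CC-292 left the lipid genes within 1.5-fold of control in both lines. None of 36 genes was at least 1.5-fold higher or lower with CC-292 in REC-1, where 9.05% of all genes were, and none in Z138, where 4.70% were. Shares of all genes, here and throughout, are not matched for signal. A signal of log2 6.61 was reached on at least 1 array by 34 of the 36 genes and by 7707 of all 10823. Dimmer probe sets that reached the minimum passed 1.5-fold in REC-1 for ABCG1 (-1.34), ELOVL6 (-0.72), NPC2 (-0.71) and ACACA (0.66). In Z138 such probe sets did so for SREBF1 (0.67) and MSMO1 (-0.65). For those of ABCG1, ELOVL6, NPC2 and SREBF1, 1 of the 2 arrays compared lay below the minimum. The limma effect of CC-292 over both lines was called for 0 of 36 genes, and for 0 of all 10823. At an unadjusted p under 0.05 that fit had 1 of the 36 genes, DHCR7, beside 4.36% of all genes. A median size of difference, without sign, of 0.20 in REC-1 and 0.11 in Z138 stood beside 0.20 and 0.14 over all genes.

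Small decreases outnumbered small increases in both lines. In REC-1, 25 of 36 genes were below control with CC-292, where 57.8% of all genes were, and in Z138 26 of 36, where 48.1% were. The median differences were -0.14 in REC-1 and -0.06 in Z138, beside -0.05 and 0.01 over all genes. Spiked hybridization controls had median CC-292 differences of -0.07 in REC-1 and 0.09 in Z138, and their part in these values was not tested. Both lines were below control for 20 genes (26.5% of all genes), both above for 5 (20.5% of all genes), and the signs differed for the other 11. The pooled SD of such a difference between probe sets of a gene was 0.31 in REC-1 and 0.25 in Z138, larger than most of these values. The ABCA1 values of REC-1, both below the minimum, have no order.

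At a log2 difference of at least 0.32, 12 of 36 genes were counted in REC-1 (29.1% of all genes), 3 higher and 9 lower, beside 12.1% and 17.0%. In Z138 the count was 5 of 36 (17.6% of all genes), 1 higher and 4 lower, beside 8.58% and 9.05%. Only DHCR7 was lower by that much in both lines, as 1.97% of all genes were. With CC-292 it had 9.18 in REC-1, against 9.59 in the control, and 7.37 in Z138, against 7.76 in the control. The difference was -0.40 in REC-1 and -0.39 in Z138, and by limma it had an unadjusted p of 0.046 and an adjusted p of 1.0.

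Among the enzymes from squalene to cholesterol, 9 of 10 were below control with CC-292 in REC-1 (57.8% of all genes) and 7 of 10 in Z138 (48.1% of all genes). Their medians were -0.30 and -0.08, beside -0.05 and 0.01 over all genes. SC5D had 9.36 with CC-292, against 9.84 in the REC-1 control, and 7.81 with CC-292, against 7.74 in the Z138 control. The REC-1 difference of -0.48 belongs to its brightest probe set, and the mean over its 4 probe sets was -0.0023. LSS had 8.01 with CC-292, against 8.31 in the REC-1 control, and 7.78 with CC-292, against 8.25 in the Z138 control. All 3 LSS probe sets averaged -0.31 in REC-1 and -0.26 in Z138, with an SD of 0.14 and 0.36. TM7SF2, a sterol C14 reductase, had the lowest difference in Z138, with 7.60 with CC-292, against 8.16 in the control, and 7.76 with CC-292, against 7.86 in the REC-1 control. Its Z138 difference of -0.56 was -0.25 as the mean of 5 probe sets, and its REC-1 mean was 0.21, opposite in sign to the brightest probe set.

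For MSMO1 the values were 9.59 with CC-292, against 9.65 in the REC-1 control, and 9.27 with CC-292, against 9.08 in the Z138 control. Its Z138 difference of 0.19 was among the 3 highest, but the mean of its 4 probe sets was -0.19. SQLE differed by -0.31 in REC-1 and -0.05 in Z138, and CYP51A1 by -0.31 and 0.01 (mean of 2 probe sets -0.25 and -0.09). NSDHL differed by -0.40 in REC-1 and -0.09 in Z138. EBP differed by -0.19 in REC-1 and -0.07 in Z138, and HSD17B7 by 0.19 in REC-1 and -0.13 in Z138. All of these values, from the brightest probe set or the mean, lay within 1.5-fold of control.

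In the mevalonate steps, 6 of 7 genes were below control with CC-292 in REC-1 (57.8% of all genes) and 4 of 7 in Z138 (48.1% of all genes). Their medians were -0.21 and -0.05, beside -0.05 and 0.01 over all genes. ACAT2 had 10.72 with CC-292, against 11.16 in the REC-1 control, and 10.49 with CC-292, against 10.61 in the Z138 control. Its probe sets agreed closely, with a mean over 3 of -0.34 (SD 0.09) in REC-1 and -0.14 (SD 0.03) in Z138. PMVK, the phosphomevalonate kinase, was the exception, with 8.48 with CC-292, against 8.06 in the REC-1 control, and 8.26 with CC-292, against 8.12 in the Z138 control. Its REC-1 difference of 0.42 was 0.23 as the mean of 3 probe sets. MVK differed by -0.34 in REC-1 and 0.15 in Z138, and its 2 probe sets gave nearly the same values. HMGCS1, FDPS and IDI1 differed by -0.21, -0.09 and -0.02 in REC-1 and by -0.05, -0.10 and -0.07 in Z138.

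Of the transport and LXR genes, STARD4 and MYLIP stood at the ends in REC-1. STARD4 had 6.69 with CC-292, against 7.24 in the REC-1 control, and 5.68 with CC-292, against 5.85 in the Z138 control. Its REC-1 difference of -0.55 was the lowest of the 36, but the mean of its 5 probe sets was -0.10. MYLIP had 7.76 with CC-292, against 7.30 in the REC-1 control, and 7.23 with CC-292, against 7.26 in the Z138 control. The REC-1 difference of 0.46 was the highest of the 36 and was 0.24 as the mean of 3 probe sets. NPC2 had 8.83 with CC-292, against 9.18 in the Z138 control, a difference of -0.36 with a mean over 4 probe sets of -0.38, and 9.54 with CC-292, against 9.66 in the REC-1 control. NPC1 differed by -0.25 in REC-1 and -0.20 in Z138, and ABCG1 by 0.17 in REC-1 and -0.16 in Z138. The mean of the 5 ABCG1 probe sets was -0.18 in REC-1, opposite in sign, and -0.04 in Z138. The REC-1 mean includes probe sets below the minimum in that line.

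The SREBP control genes had median differences of 0.07 in REC-1 and -0.03 in Z138, beside -0.05 and 0.01 over all genes. SREBF2 had 7.54 with CC-292, against 7.17 in the REC-1 control, and 8.22 on both Z138 arrays. Its REC-1 difference of 0.36 belongs to the brightest probe set, and the mean of all 3 was -0.0071. INSIG1, a sensitive target of SREBP-2, differed by 0.07 in REC-1 and 0.09 in Z138, with a mean of 3 probe sets of -0.15 and 0.05. INSIG2 differed by -0.17 and -0.11, with a mean of -0.30 and 0.16. SCAP differed by -0.33 in REC-1 and -0.06 in Z138, with a mean of -0.16 and 0.12. SREBF1 differed by 0.20 in REC-1 and -0.03 in Z138, with a mean of -0.14 and 0.12. In Z138 SREBF2 differed by -0.0019, with a mean of 0.04. For INSIG1, SREBF1 and SREBF2 in REC-1, and for INSIG2, SCAP, SREBF1 and SREBF2 in Z138, the brightest probe set and the mean thus have opposite signs.

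The fatty-acid genes differed little, with medians of -0.06 in both lines, beside -0.05 in REC-1 and 0.01 in Z138 over all genes. ACLY differed by -0.37 with CC-292 in REC-1 and by -0.08 in Z138, and its 2 probe sets had the same sign in both. ACACA differed by -0.19 in REC-1 and -0.27 in Z138, and its 3 probe sets averaged 0.09 and -0.02. FADS1 had 8.47 with CC-292, against 8.32 in the REC-1 control, and 8.74 with CC-292, against 8.57 in the Z138 control, differences of 0.15 and 0.17. FASN, SCD and ELOVL5 differed by -0.10, -0.15 and -0.03 in REC-1 and by -0.12, -0.0047 and -0.04 in Z138, and FADS2 differed by 0.12 in REC-1 and -0.14 in Z138 (mean of 4 probe sets -0.06 and 0.14). ELOVL6 was 0.30 higher in REC-1 by its brightest probe set, with a mean over 3 probe sets of -0.25.

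**Figure D4:**
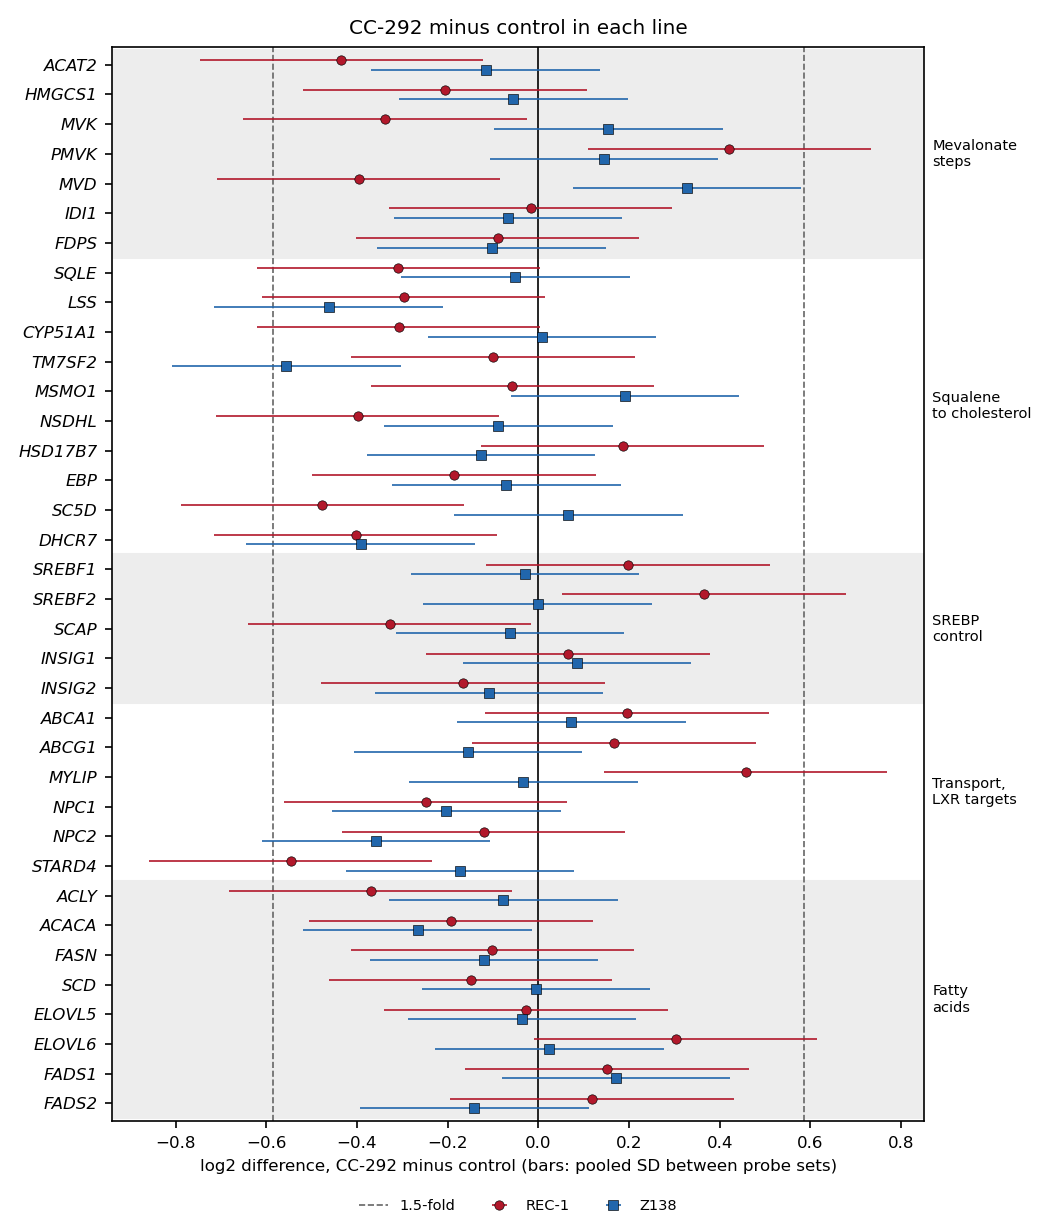
Log2 difference CC-292 minus control (horizontal axis) of the 36 lipid genes in REC-1 and in Z138, grouped by role, 1 value per line, with the pooled SD between probe sets (0.31 in REC-1 and 0.25 in Z138) as bars. All values lie within 1.5-fold of control (dashed lines), between -0.55 and 0.46 in REC-1 and between -0.56 and 0.33 in Z138.

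The difference in response between the lines was at least 1.5-fold for 1 of 36 genes, where 16.5% of all genes reached it in either direction. At a log2 difference of at least 0.32 the count was 8 genes (39.8% of all genes), and at 2-fold 0 (4.11%). The gene past 1.5-fold was MVD, the mevalonate diphosphate decarboxylase. It had 6.12 with CC-292, against 6.51 in the REC-1 control, and 6.18 with CC-292, against 5.86 in the Z138 control. The signs were opposite, -0.40 in REC-1 and 0.33 in Z138, and the value rests on 1 probe set and was not tested. The median difference in response of the 36 genes was -0.02, beside -0.06 over all genes.

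Probe sets of a gene agreed on the line difference more often than on the CC-292 difference. Of 31 genes with several probe sets, all probe sets had the same sign for the line difference in 26 genes on the CC-292 arrays and in 23 on the control arrays. For the CC-292 difference that held for 13 genes in REC-1 and 12 in Z138. The mean over probe sets had the opposite sign to the brightest for 10 genes in REC-1 and 11 in Z138. For the line difference this was so for CYP51A1 on the CC-292 arrays and for SREBF1 on the control arrays. All of these counts include probe sets under the minimum, and the same counts over all genes were not made. The 10 genes in REC-1 include ABCA1, whose values there have no order. The name of the brightest probe set ended in _x, which marks probes that may also bind other transcripts, for 8 of the 36 genes. For 10 more it ended in _s, and whether those probes bind other transcripts was not examined.

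A wider list of 50 other lipid genes, among them regulators, acyl-CoA synthetases and enzymes of triglyceride synthesis, had 42 genes with a probe set and 31 above the minimum. In REC-1, 0 were at least 1.5-fold higher and 2 lower with CC-292 (4.32% and 4.73% of all genes), and in Z138 0 higher and 1 lower (2.18% and 2.52% of all genes). The medians were -0.08 in REC-1 and 0.01 in Z138. SCD5, a second delta-9 desaturase, had 4.12 with CC-292, below the minimum, against 4.96 in the REC-1 control, and was thus lower by a log2 difference of at least 0.33, counted from the minimum. In Z138 it had 6.81 with CC-292, against 6.54 in the control. DGAT1, which makes triglycerides, had 7.06 with CC-292, against 7.68 in the REC-1 control, and 5.53 with CC-292, against 5.91 in the Z138 control. ACSS2, which makes acetyl-CoA from acetate, had 6.16 with CC-292, against 6.01 in the REC-1 control, and 4.83 with CC-292, against 5.55 in the Z138 control. As means over all their probe sets, these differences were -0.26 for SCD5 and -0.42 for DGAT1 in REC-1, and -0.30 for ACSS2 in Z138. Between the lines, 11 of the 31 genes were higher and 6 lower in REC-1 by limma, beside 21.6% and 23.1% of all genes, and 0 passed for CC-292.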

How the data were processed

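RNA of 4 cultures, 1 per group, was measured on Affymetrix arrays. Per the labels' protocols, RNA was isolated with Trizol and 150 ng was used for biotin-labelled cRNA. The authors deposited one log2 signal per probe set (2.18 to 14.26), a scale inferred from the values. RMA and Affymetrix Expression Console 1.1 are the tools named per the submitters' processing notes. For the settings and the genome build, no source used here gives a value. If the arrays were quantile-normalized together, a shift of most genes one way would not show.

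Of 49386 probe sets, 93 were array controls, 45259 had 1 gene symbol, 1327 several and 2800 none. The last 2 kinds were left out. Symbols were checked by Entrez identifier against a RefSeq table of GRCh38.p14, where 45178 probe sets matched and 0 symbols differed. Each gene took its probe set of highest mean signal and was kept if its highest value reached the median of all values. The SD over probe sets took those that reached this minimum, the mean all of them. Array precision is limited by the number of arrays. The labels do not say how the cultures relate to each other. With line and treatment in the model, the residual is the difference in response between the lines, moderated towards all genes. The SE and p-values rest on that residual and not on a spread between cultures of 1 condition.

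Groups were taken from the array titles. Differences between 2 single arrays, and between the responses of the lines, have no test. Effects over all 4 arrays were tested with limma 3.58.1 (lmFit, eBayes; line and treatment in the model; R 4.3.3) over 10823 genes with Benjamini-Hochberg adjustment. The fit leaves 1 residual degree of freedom, moderated towards all genes. In data simulated for these fits, with 10823 genes, the CC-292 effect recovered 26 of 100 genes with a 2-fold change, 97 of 100 with a 4-fold change and 6 false ones. For the line effect these counts were 16, 97 and 8. No other gene was changed in the simulated data. Between the simulated CC-292 and control arrays of REC-1, 730 of the unchanged genes still differed at least 1.5-fold. The real line fit called 44.7% of all genes, so the simulated line counts do not tell how many changes that fit recovers. Python 3.11.15, pandas 2.3.3, numpy 2.4.6 and matplotlib 3.10.9 did the rest.

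The genes, lists, tests and alternatives were chosen with earlier results of these data known. Values on every array are given for genes that differed at least 1.5-fold with CC-292, at least 2-fold between lines on both array pairs or passed a limma test, and for the 3 highest and 3 lowest of each CC-292 comparison. Alternatives were no filter, a filter at the 70th percentile (log2 6.61), median centring, quantile normalization, cyclic loess, the mean or the median probe set, thresholds of 2-fold and log2 0.32, an intensity trend and single-factor models.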

Additional observations from a re-analysis of the deposited data

Results flagged for a closer look

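For 2 genes the CC-292 differences of the lines had opposite signs, each larger than the pooled SD between probe sets. The difference in response, REC-1 minus Z138, was log2 -0.72 for MVD, with -0.40 in REC-1 and 0.33 in Z138. For SCD5 of the wider lipid list the signals gave -1.11, but the CC-292 array of REC-1 lay below the brightness minimum, and counted from the minimum the difference was -0.59 or further below 0. With 1 array per group, neither difference was tested. MVD was 1 of 36 pathway genes of this kind (2.78%), beside 602 of 10823 genes in all (5.56%). The SCD5 values belong to its brightest probe set. As means over its 5 probe sets, 2 of which reached the minimum, SCD5 differed by -0.26 in REC-1 and by 0.04 in Z138.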

How the results depend on the processing

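The limma test between lines called 13 to 21 of the genes over 9 alternatives, and the CC-292 effect was called for 0 of them under each of the 9. The count between lines over all genes moved as well. It was 4435 of 18239 genes without the filter, where 13 of the lipid genes were called. With the intensity trend it was 5735 of 10823, where 21 of the lipid genes were called. Of the 16 calls, those of HMGCS1, FASN and NPC2 were lost without the brightness filter, those of INSIG1, SREBF2 and NPC2 with the median probe set, and that of NPC2 with the mean. ACAT2 and MSMO1 passed in 3 of 9 alternatives each. Fold counts followed the threshold: at a log2 difference of 0.32, 12 genes were counted for CC-292 in REC-1 and 5 in Z138, and at 2-fold, 7 between lines on the CC-292 arrays and 7 on the control arrays. The difference in response was counted for 8 genes at 0.32, 0 at 2-fold and 0 with the filter at the 70th percentile. The other alternatives kept these counts within 1.5 times and no direction of a named gene that had been called was reversed. The median over the 36 genes lay between -0.14 and -0.08 for CC-292 in REC-1 and between -0.09 and -0.05 in Z138. Cell line stands as a block in the CC-292 fit, and without it the count was also 0. The limits are 1 array per group, signals near the minimum for ABCA1, ABCG1 and SCD5, and probe sets of a gene that disagree on differences as small as those with CC-292.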
